A study of Drosophila melanogaster with 3 samples.

Results

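Eip75B is a nuclear receptor of Drosophila whose transcription is switched on by the steroid hormone ecdysone, and its binding was examined here at 10 genes that make, regulate or take up ecdysteroids. They are the enzyme genes nvd, spok, sro, dib, sad and shd, the regulators mld and woc, the sterol transport gene Npc1a and the hormone importer gene Oatp74D. The genes were chosen by function, from a list by name, with earlier results of these data known. The 6 chromosome arms used hold 13945 protein-coding genes, these 10 included. Each of the 10 was given a window of the gene body with 5 kb on either side.

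The material was whole prepupae of a MiMIC line of Drosophila melanogaster, in which an exon encoding eGFP lies in an intron of Eip75B so that the protein is made as an Eip75B-eGFP fusion. Males and females were pooled, the age within the stage is unknown, and chromatin was sonicated to 200 to 800 bp and precipitated with an anti-GFP antibody. There was 1 group with 3 biological replicates and no second condition, so binding is described and no difference between conditions could be tested. Every replicate carries the same single insertion line, and an untagged line is not analysed here.

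Ecdysteroids are built from dietary sterols, in the larva and early metamorphosis mainly in the prothoracic gland, a small endocrine gland. The early enzymes turn cholesterol into a ketodiol, the later ones add hydroxyl groups to give ecdysone, and peripheral tissues convert ecdysone to its active form after taking it up from the haemolymph. In whole animals, binding in a few gland cells is mixed with chromatin of all other tissues, so a site bound in a small tissue and a site that is not bound cannot be told apart where no region is listed.

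The deposited lists hold regions with a summit, the point of highest enrichment, and a signal, which is the authors' peak caller's own value and was used only within a list. The optimal list, made by the authors with IDR, which compares the ranks of regions between replicates, held 7803 regions with signals from 92.6 to 3259 and a median of 164. The lists of the 3 replicates and of the pooled replicates held 30000 regions each, background included, and the 7803 regions of highest signal in a replicate are called its top list. Depth per library is unknown, since the lists give no read counts.

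The window of the importer gene Oatp74D held more Eip75B-eGFP summits than that of any other of the 10 genes, 12 of the 26 optimal summits in the windows. With overlapping regions merged, these 12 formed 10 regions. The regulator mld had 7, shd had 4, sad had 2 and woc had 1. The remaining genes, nvd, spok, sro, dib and Npc1a, had none. Only Oatp74D, mld and woc had a summit within 1 kb of one of their own transcription starts, called a promoter summit below. None of the 6 enzyme genes had one, against 23.6% of all protein-coding genes, and no test was made on 6 genes. Of these, nvd and spok lie where the lists hold few regions, as given below.

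In the optimal list the shares of the 10 genes together were near those of all genes. The 3 of 10 genes with a promoter summit stand beside 23.6% of all protein-coding genes, and the 5 of 10 with a summit in the window stand beside 50% (6975 genes). In the top list of replicate 1, 5 genes had a promoter summit against 24.9% of all genes. In replicates 2 and 3 there were 4 each, against 25.7% and 24.1%. The mean over the replicates was 4.33 ± 0.577 genes (SD, n = 3). For window summits the replicates gave 6, 6 and 5 genes against 52.4%, 52.2% and 52.3% of all genes, a mean of 5.67 ± 0.577 (SD, n = 3). The longer pooled list, background included, covered no further gene, 5 of 10 against 71.3%. The counts differed by 1 gene at most between replicates, but the genes were not all the same. Beyond Oatp74D, mld and woc, the promoter genes were shd and Npc1a in replicate 1, sro in replicate 2 and shd in replicate 3. These added promoter regions ranked from 6124 to 7783, in the lower part of the top lists. Among window genes, replicate 1 added Npc1a and replicate 2 added sro to those of the optimal list. The promoter counts of the replicates were above the share of all genes and the window counts near it. No test was made, as the genes were chosen with earlier results of these data known. The number of summits in the windows was 26 in the top list of replicate 1 and 29 in each of the others, a mean of 28.0 ± 1.73 (SD, n = 3).

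**Figure D1:**
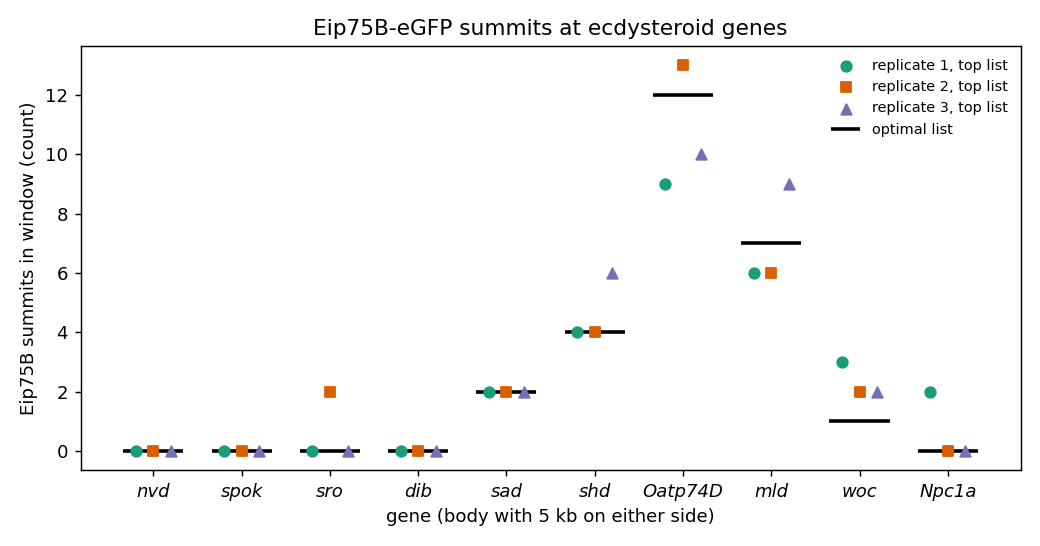
Number of Eip75B-eGFP summits (vertical axis, count) in the window of each gene (horizontal axis, gene body with 5 kb on either side), with 1 point per replicate for its 7803 highest-signal regions and a black bar for the optimal list. Oatp74D has 9, 13 and 10 summits in the replicates, while nvd, spok and dib have 0 in every top list.

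Oatp74D (FBgn0036732) encodes the membrane transporter that carries ecdysone into target cells. It spans 24576 bp on 3L, from 17487118 to 17511693 of dm6 on the plus strand, with annotated starts at 17487118 and 17487634. The sequences below are the 101 bp around its strongest intronic summits and around its strongest promoter summit, read from the plus strand of the Release 6 assembly, 5′ to 3′. They hold no match to any motif searched, so no letters are in capitals.
Oatp74D intron, chr3L:17497024-17497124: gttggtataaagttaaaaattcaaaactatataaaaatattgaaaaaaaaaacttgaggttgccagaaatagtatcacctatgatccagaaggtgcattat
Oatp74D intron, chr3L:17502382-17502482: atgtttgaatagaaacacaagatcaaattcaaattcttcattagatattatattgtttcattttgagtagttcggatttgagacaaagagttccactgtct
Oatp74D intron, chr3L:17495536-17495636: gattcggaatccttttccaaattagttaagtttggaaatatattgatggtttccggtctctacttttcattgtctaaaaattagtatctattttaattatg
Oatp74D promoter, chr3L:17486868-17486968: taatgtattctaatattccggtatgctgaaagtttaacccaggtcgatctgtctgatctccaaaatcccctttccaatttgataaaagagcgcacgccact

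The strongest summit in any of the windows, at 17497074, lies in an Oatp74D intron 9956 bp downstream of the first start, with signal 353 and rank 1232 in the optimal list. Its signal was 153, 119 and 88.2 in replicates 1, 2 and 3. The corresponding ranks were 817, 1238 and 1971, so each replicate placed it well inside its top list. The second strongest of Oatp74D, at 17502432, had signal 305 (rank 1568) and lies 15314 bp from the first start. Its replicate signals were 84.1, 99.5 and 116, with ranks of 2277, 1698 and 1255, here best in replicate 3. The summit at 17495586, with signal 220, had 73.7, 62.3 and 80.3 in the replicates, with ranks of 2755, 3679 and 2297. The first summit ranked best in replicate 1 and the others in replicate 3, and all 3 were in all 3 top lists.

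The intronic summit at 17495586 is not unambiguously an Oatp74D site. The gene edin, an immune gene induced by infection, lies inside the Oatp74D intron on the same strand, from 17494880 to 17495300, and its start is 706 bp from that summit. The start of edin is also the nearest annotated start to the summits at 17497074 and 17502432, at 2194 and 7552 bp. The data do not tell which of the genes, if any, is affected by binding there.

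At the promoter, a summit 200 bp upstream of the first start had signal 153 (rank 4319), and a second, 3 bp downstream of it in the 5′ UTR, had 108 (rank 6595). Their regions overlap. A replicate's value at an optimal summit is that of its highest-signal region holding the summit, so neighbouring summits can share 1 region. At the upstream summit the replicate signals were 87.5, 55.8 and 60.5. The replicate summits themselves lay 6, 203 and 8 bp from it, which puts the summit of replicate 2 at the downstream position. A pair of summits in an intron of the neighbour CG6333, at 17485446 and 17485645, upstream of the Oatp74D start, had signals of 173 and 118, the first of them in all 3 top lists.

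The remaining intronic summits of Oatp74D were weaker, from 95.2 at 17491855 to 144 at 17506163. The weakest had 29.4, 37.6 and 33.8 in the replicates, with ranks of 8583, 7401 and 7420, at the edge of the top lists. Of the 12 Oatp74D summits, 7 were in all 3 top lists. Replicate 1 held 7 of the 12, replicate 2 held all 12 and replicate 3 held 11. In the whole replicate lists, 28, 28 and 26 regions had their summit in the window.

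Oatp74D is long, and long genes collect more summits. The 178 other genes within 10% of its length (22120 to 27025 bp) had a median of 1 optimal summit in the body, and 5 of them had at least its 9. In the window, 3 of the 178 had at least 12, and 71 of all protein-coding genes did. The density in the window was 3.47 summits per 10 kb, against 1.45 for mld, 2.25 for shd and 1.60 for sad. These lengths are windows that share summits with neighbouring genes.

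**Figure D2:**
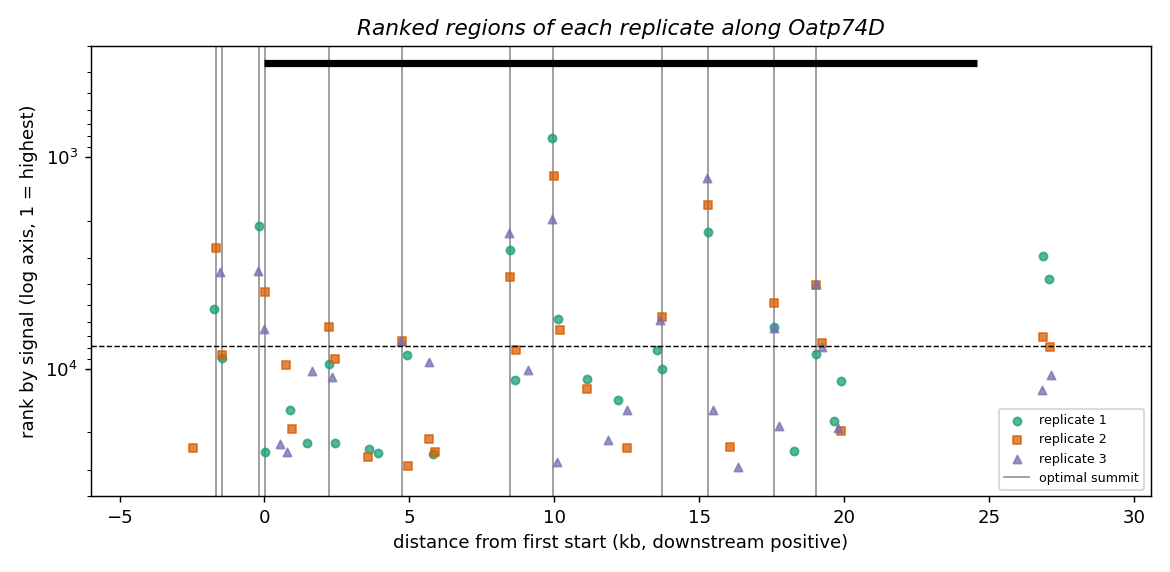
Rank of every region of the 3 replicate lists (vertical log axis, 1 is the highest signal) against the distance of its summit from the first Oatp74D start (kb), with grey lines at the 12 optimal summits, a black bar for the gene body and a dashed line at rank 7803. At the 2 summits 9956 and 15314 bp from the start, all replicate ranks lie between 817 and 2277, while between 20 kb and the end of the gene no replicate listed a region.

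Just beyond the 3′ end of Oatp74D, the replicates listed regions that the pooled list lacks. In replicate 1, summits at 17513980 and 17514181 had signals of 70.6 and 58.7, ranks 2935 and 3779, at 68 bp from the start of U4-U6-60K and 117 bp from that of CG7564. Replicate 2 had a summit at 17513999 with signal 38.8, rank 7086. Replicate 3 had its nearest regions at ranks 12559 and 10724, outside its top list. The place was therefore listed in all 3 replicates, at the best rank in replicate 1, and in neither the pooled nor the optimal list.

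Of the regulators, mld (molting defective, FBgn0263490) encodes a zinc finger protein needed for the transcription of nvd and spok. The gene spans 38247 bp on 3R, from 24585653 to 24623899 on the plus strand, with starts at 24585653 and 24589162. Its promoter summits are shown because this gene acts on enzyme genes that had no summit of their own. In the second sequence the capitals mark 2 copies of CTCTC, which is GAGAG read on the other strand.
mld upstream, chr3R:24585480-24585580: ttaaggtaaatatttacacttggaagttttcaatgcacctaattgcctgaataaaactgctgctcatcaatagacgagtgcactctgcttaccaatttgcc
mld intron, chr3R:24586581-24586681: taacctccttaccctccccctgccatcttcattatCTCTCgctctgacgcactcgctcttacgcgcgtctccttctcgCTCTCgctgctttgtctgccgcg

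The mld summit at 24586631, in an intron 978 bp downstream of the first start, was the strongest of its window, with signal 238 and rank 2300. It had 63.8, 115 and 55.5 in the replicates, and all 3 ranks (3370, 1312 and 3920) were in the top lists. The summit 123 bp upstream of the first start had 118 in the optimal list. It also lies within 1 kb of the start, at 24585160, of the minus-strand neighbour CG13625. The replicate signals of this summit were 33.2, 32.1 and 52.1. The ranks were 7483, 8940 and 4280, so that replicate 2 held it outside its top list. At the second start, a region of the pooled list 18 bp downstream had signal 61.5 (rank 11857), below the optimal list, and replicate 3 placed its own summit there, 64 bp downstream of the start, at rank 6533.

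Further into mld, the intronic summits at 24603805 and 24614301 had signals of 165 and 192. The replicates ranked both unequally. At 24614301 they had 30.1, 86.6 and 68.1, with ranks of 8356, 2156 and 2933. At 24603805 they had 29.1, 73.3 and 46.6, with ranks of 8705, 2819 and 4930. At both, the replicate 1 region holding the summit ranked lowest, outside its top list. At the former place, replicate 1 also had a top-list region with its summit at 24614003 (signal 45.7, rank 5204). That region overlaps the optimal region without holding the optimal summit. The fourth summit in the body, at 24599756, had signal 101 (rank 7047), and here replicate 2 ranked it lowest, at 12727. In the flanks, the summit at 24582064 lies in an intron of REPTOR with signal 144, and that at 24626138 lies in an intron of atl, 467 bp from its start, with signal 118. Only 1 of the 7 mld summits was in all 3 top lists. The 4 body summits stand beside a median of 1 for 134 other genes of similar length, 33 of which had at least 4.

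The second regulator gene, woc (without children, FBgn0010328), encodes a zinc finger protein required for ecdysone synthesis. It lies on the minus strand of 3R, from 27256595 to 27264055. Its only optimal summit, at 27263870, is in the 5′ UTR, 185 bp downstream of the start at 27264055, with signal 232 and rank 2393. The replicate signals were 109, 78.5 and 126, and the ranks were 1516, 2517 and 1102. Each replicate thus ranked it in the upper part of its top list. Replicates 1 and 3 listed a pair of summits there and replicate 2 listed 1, and the highest replicate summits lay 174, 2 and 112 bp from the optimal one.

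In the flank beyond the 3′ end of woc, a strong region of replicates 1 and 2 was missing from the pooled list. Its summits were at 27253266 in replicate 1, with signal 135 and rank 1033, and at 27253288 in replicate 2, with signal 100.3 and rank 1675. Both lie in an intron of TfIIA-L, 84 and 106 bp from the start of pll. Replicate 3 listed no region with a summit in that flank. In replicate 1 it outranked the woc promoter, 1033 against 1516.

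**Figure D3:**
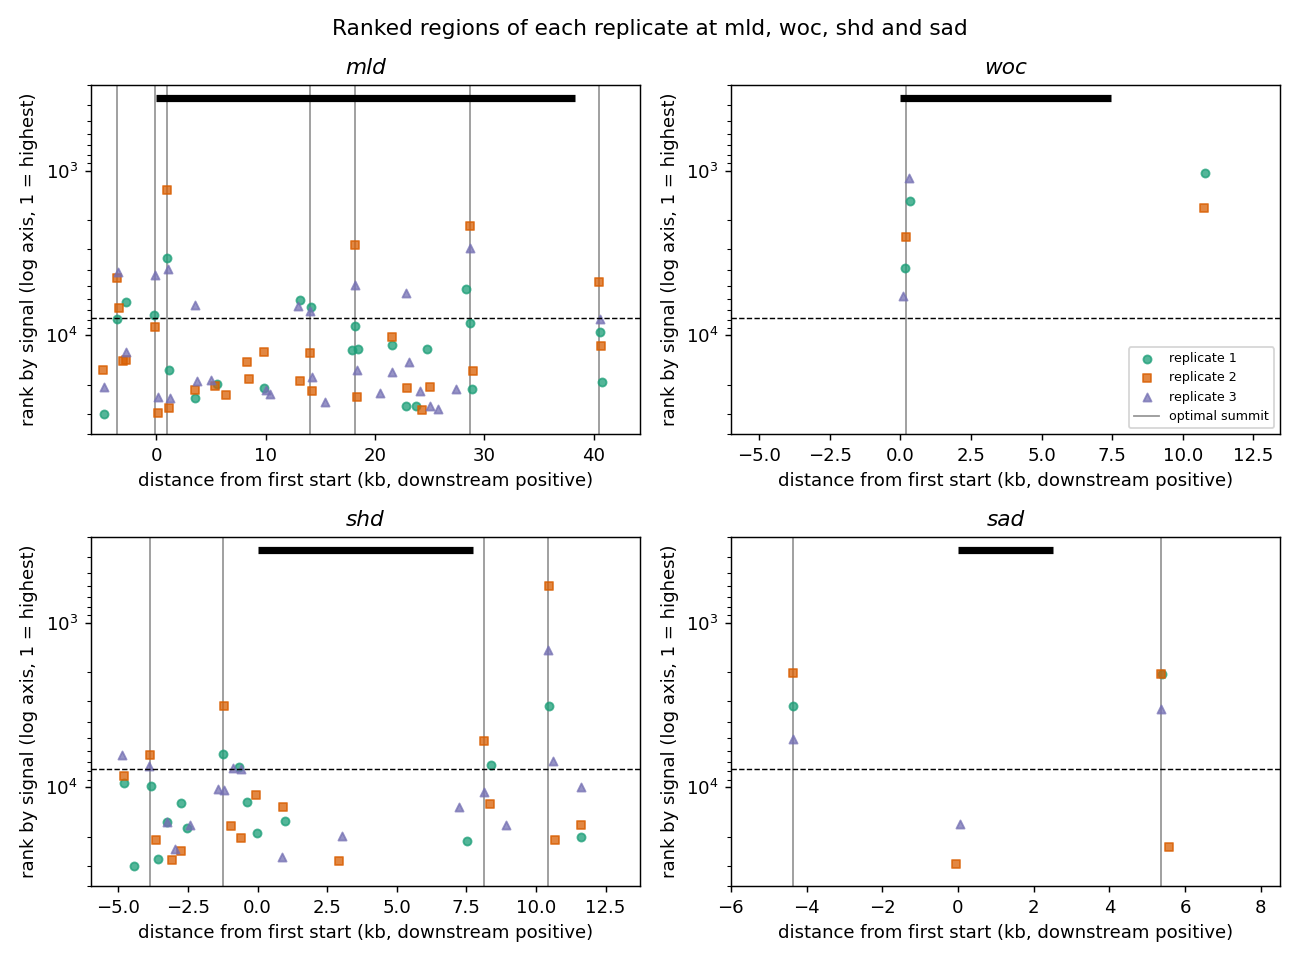
Rank of every region of the 3 replicate lists (vertical log axes, 1 is the highest signal) against the distance of its summit from the first start of mld, woc, shd and sad (kb, downstream positive), with grey lines at optimal summits, black bars for gene bodies and a dashed line at rank 7803. The optimal summits of shd and sad all lie outside the gene bodies, while woc has a single one 185 bp downstream of its start.

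Among the enzyme genes, shd and sad (2 of 6) had optimal summits in their windows, as did 6975 of all 13945 protein-coding genes. The 6 summits of shd and sad all lie in the flanks. Empty bodies are common at these lengths. Among genes within 10% of the length of sad and shd, 93.2% and 66.25% had no optimal summit in the gene body. The shd gene (shade, FBgn0003388), on 3L from 14614458 to 14622205, encodes the P450 that hydroxylates ecdysone to the active hormone in peripheral tissues. The sad gene (shadow, FBgn0003312), on 3R from 11877235 to 11879754, encodes the P450 of the last step to ecdysone. The strongest flank summit of shd, its nearest upstream one, and both summits of sad are printed to show what lies at the bound places around enzyme genes. The capitals in the first mark GGGTCA, read on the other strand as TGACCC, 42.5 bp from the summit to the middle of the match.
shd downstream, chr3L:14624846-14624946: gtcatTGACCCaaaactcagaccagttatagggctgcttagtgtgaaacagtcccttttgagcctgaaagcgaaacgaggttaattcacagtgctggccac
shd upstream, chr3L:14613159-14613259: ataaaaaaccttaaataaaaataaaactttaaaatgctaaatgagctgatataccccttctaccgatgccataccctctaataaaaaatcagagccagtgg
sad upstream, chr3R:11872830-11872930: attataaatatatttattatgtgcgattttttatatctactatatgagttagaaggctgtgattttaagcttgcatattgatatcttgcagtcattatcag
sad downstream, chr3R:11882549-11882649: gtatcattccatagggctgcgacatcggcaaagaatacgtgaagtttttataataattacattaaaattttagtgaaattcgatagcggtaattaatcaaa

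The shd summit at 14624896 had signal 351 and rank 1240, the second strongest of all windows, but it lies in an intron of the neighbour CG9628. Its replicate signals were 66.0, 176 and 106, with ranks of 3230, 600 and 1466. The nearest upstream summit, 1249 bp from the first shd start, had signal 137 in the optimal list. Its replicates gave 38.7, 67.6 and 25.4, and in replicate 3 it ranked 10230, outside the top list. Closer to the start, replicate 1 listed a summit 672 bp upstream at rank 7515. Replicate 3 listed summits 871 and 613 bp upstream at ranks 7636 and 7783, so all were just inside the top lists. The replicate 3 region with its summit at 871 bp overlaps the optimal region without holding the optimal summit. The pooled list had a summit 656 bp upstream at rank 9485 with signal 77.0, below the lowest optimal signal of 92.6. The summit at 14610587, 3871 bp upstream, had signal 105, and that at 14622610, 186 bp from the start of CG9628, had 98.0. Only replicate 2 had a top-list region holding the summit at 14622610. Replicate 1 had a top-list region with its summit at 14622860 (rank 7317), which overlaps the optimal region without holding the optimal summit. For shd, then, promoter summits appeared in 2 of 3 replicate top lists at their lower end and not in the optimal list.

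Of the sad summits, that at 11872880 had signal 204 and lies between genes, 4355 bp upstream of sad. Its replicate signals were 66.2, 89.6 and 45.7. That at 11882599, with signal 242, had 89.8, 88.8 and 62.4 in the replicates and lies 65 bp from the start of CG6962, a gene whose body overlaps the 3′ end of sad. Both were in all 3 top lists, and replicate 3 ranked both lowest, at 5070 and 3324. At the sad start itself, the pooled list held regions 131 bp upstream and 74 bp downstream with signals of 34.8 and 35.3, at ranks 19484 and 19297, among the weaker of its 30000 regions.

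The P450 gene dib (disembodied, FBgn0000449; 3L, 4062292 to 4064551), which acts directly before sad, had no region in its window in the optimal or pooled lists. Replicate 1 had 1 region, 2884 bp upstream and 362 bp from the start of Ugt305A1, at rank 10527. The dehydrogenase gene sro (shroud, FBgn0262112; 3R, 29794597 to 29795805), which acts in the early steps, had regions in replicate 2 at 241 and 39 bp upstream of its start, with signals of 37.8 and 22.4. Their ranks were 7335 and 13094, so the first of them counted as a promoter summit of that replicate. Replicates 1 and 3 and the pooled list had none at the sro start. A further region of replicate 2, 61 bp from the start of Drice, ranked 7560, and replicate 3 had one there at rank 15850.

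Npc1a (FBgn0024320), which moves sterols out of endosomes and so supplies the enzymes with substrate, lies on the minus strand of 2L from 10213812 to 10221216. It had no optimal or pooled summit in its window. Replicate 1 listed 8 regions there, replicate 2 listed 1 and replicate 3 listed 0. The strongest in replicate 1 lies in the gene, 103 bp upstream of its start at 10220952, with signal 39.7 and rank 6124. Replicate 1 alone therefore showed a promoter summit at Npc1a. That summit also lies within 1 kb of the start, at 10221351, of the plus-strand neighbour Prosalpha6.

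For short genes an empty window is common. Among genes within 10% of the length of sro, dib and Npc1a, 55.6%, 52.6% and 36.0% had no optimal summit in the window. The enzyme genes nvd and spok are long, and their windows were empty in every list.

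The first enzyme of the pathway is encoded by nvd (neverland, FBgn0287185), an oxygenase acting on cholesterol. The gene spans 76790 bp on 3L, from 24324866 to 24401655. The gene spok (spookier, FBgn0086917), for a P450 of the following steps, spans 31677 bp on 3R from 3322810 to 3354486. In neither window did the optimal list, the pooled list or any whole replicate list hold a single summit. Of all protein-coding genes, 2095 (15.0%) had no summit in the window in the pooled and replicate lists. Among the 57 genes of similar length to nvd, 12 (21.1%) had no optimal summit in the window, and among the 155 of similar length to spok, 38 (24.5%).

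Both genes are known to lie in pericentromeric heterochromatin, and the absence of regions reaches far beyond them. The nearest optimal summits to nvd lay 1446 kb to its left and 2866 kb to its right. In the pooled list these distances were 296 and 134 kb, and the span without a summit was 303, 1197 and 509 kb in replicates 1, 2 and 3. For spok the nearest optimal summit lay 776 kb to the right, and there was none between the gene and the left end of the 3R sequence. Within 500 kb on either side of the nvd start, the replicates listed 12, 2 and 5 regions, and around the spok start 5, 2 and 3. The mean over the 6 arms was 11.2 regions per 50 kb in each list, so 1 average stretch of 50 kb held about as many as the whole 1000 kb around nvd in replicate 1.

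Sequence content differs there too. The share of soft-masked bases, which the assembly marks as repeats, was 41.5% in the nvd window and 50.3% in the spok window. The other 8 windows had 5.77% to 17.8%, and the 6 arms together 20.1%. No window held an unknown base. The treatment of reads with several placements, for these lists, is not given in the sources used, and the part of the repeats in the empty windows was not tested. Binding at nvd and spok that short reads cannot place and binding that did not occur cannot be told apart.

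**Figure D4:**
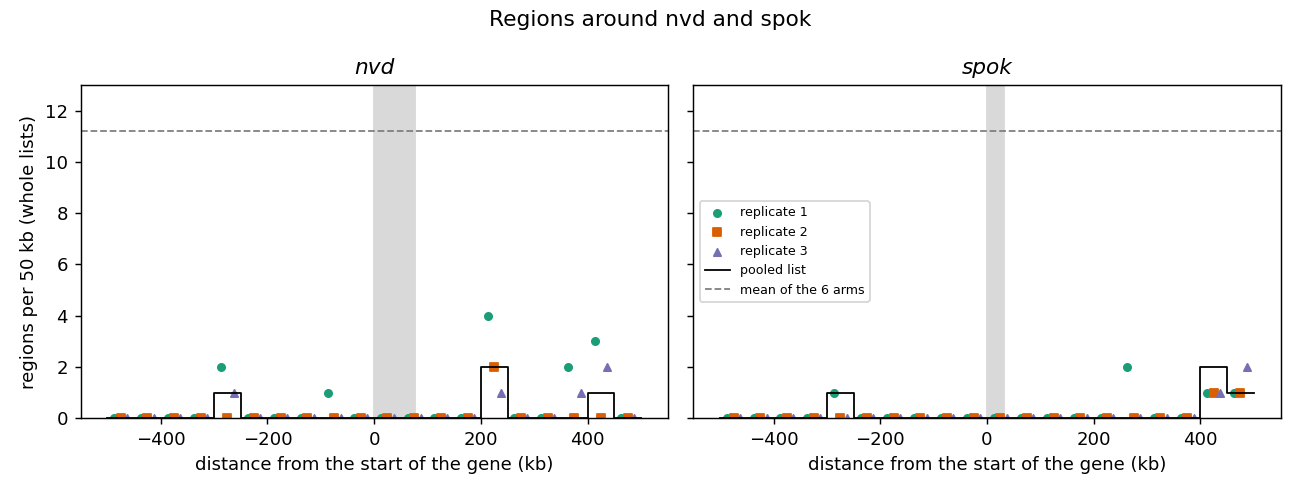
Number of regions in bins of 50 kb (vertical axis, whole lists) around the starts of nvd and spok (horizontal axis, kb), with points for the 3 replicates, a line for the pooled list, grey for the gene bodies and a dashed line at the mean of the 6 arms, 11.2. No bin of either gene body holds a region, and the highest bin shown has 4, in replicate 1.

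Taken as a set, the 26 summits were of modest signal. They ranged from 95.2 to 353 with a median of 144, against 164 for the whole optimal list, and over 4 classes of equal size in that list, from the lowest signal to the highest, they numbered 10, 5, 8 and 3. By position, 17 lay in introns, 7 between genes and 2 in 5′ UTRs. More than 1 kb from any annotated start were 14 (53.8%), against 57.6% of all optimal summits. Only 10 had a start of the gene in question as their nearest start, so the window counts describe neighbourhoods rather than genes. The values nearest the end of the optimal list were 95.2 at Oatp74D inside it, and 89.3 at shd and 85.7 near mld outside it.

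Of the 26, 12 (46.2%) lay in the top lists of all 3 replicates, against 65.2% of all optimal summits. Of the others, 11 were in 2 top lists and 3 in 1. Recovery followed signal in the whole list, where 11.9%, 59.9%, 93.1% and 96.0% of the 4 classes, from the lowest signal to the highest, were in all 3 top lists. Among the window summits the counts in the same classes were 1 of 10, 2 of 5, 6 of 8 and 3 of 3. By replicate, the share of the 26 was 57.7% in replicate 1, 92.3% in replicate 2 and 84.6% in replicate 3, while over all optimal summits it was 85.2%, 83.9% and 84.9%. By this measure, in which a replicate region must hold the optimal summit itself, replicate 1 was the low one at these genes and not over the whole list. At mld and shd, replicate 1 also had top-list regions that overlap an optimal region without holding its summit, and so had replicate 3 at shd. When replicate 1 was left out, 20 of the 26 were in both other top lists, against 14 without replicate 2 and 13 without replicate 3. Over all 7803 optimal summits the counts were 5642 without replicate 1, 5815 without replicate 2 and 5695 without replicate 3. These whole-list counts lie close together, unlike those of the 26.

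**Figure D5:**
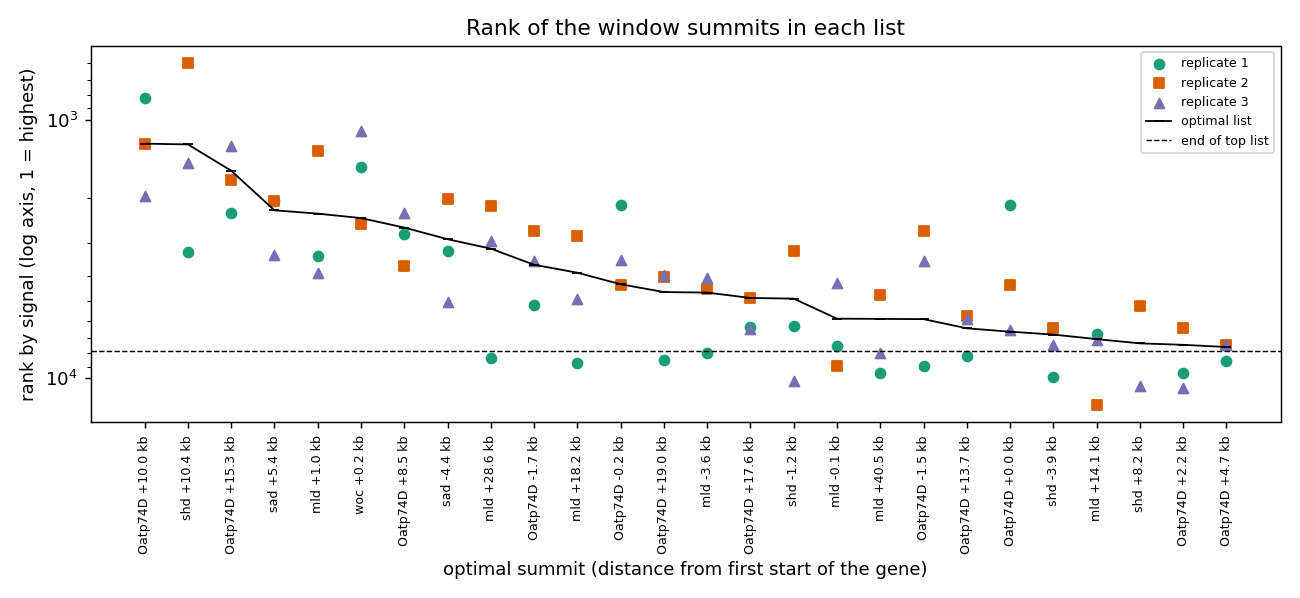
Rank (vertical log axis, 1 is the highest signal) of the 26 window summits, ordered by signal in the optimal list and named by gene and distance from its first start, with points for the 3 replicates, a joined line for the optimal list and a dashed line at rank 7803. Of the 3 summits of highest signal, all replicate ranks lie between 600 and 3230, while 11 of the 26 have a replicate 1 rank beyond the dashed line or, in 1 case, no replicate 1 region holding them.

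Some regions at these genes were strong in a replicate and absent from the pooled list. Over the windows this held for 9 of 84 top-list regions (10.7%), at 6 places, against 3.77% of all top-list regions. They numbered 5 of 26 in replicate 1, 4 of 29 in replicate 2 and 0 of 29 in replicate 3. Those 9 regions lie beside Oatp74D, woc, sro and Npc1a as given above. Each of the 6 places lies within 241 bp of an annotated start. The same share over all top-list regions without a pooled region is not given here, so this is not shown to be particular to them. Why the pooled list lacks them was not tested.

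Receptors of the Eip75B family bind the half-site AGGTCA, often with an A or T before it. Within 50 bp of the summit on either strand, AGGTCA was found at 0 of the 26 summits and at 2.51% of all 7803. The longer TAGGTCA, whose matches are also matches of AGGTCA, was found at 0 and 0.743%. The related GGGTCA occurred at 1 summit, that of shd in the CG9628 intron, and at 1.92% of all. GAGAG, the core of the sites of GAGA factor, occurred at 1 summit, that of mld, and at 12.2% of all. TATCGATA, the element bound by the replication-related factor DREF, was found at 0 and 0.871%. Where no match was found, the letters are not in these windows of 101 bp, and a match describes the letters and is not a site.

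The windows of 101 bp had a median AT content of 62.9%, against 67.3% over all optimal summits. At Oatp74D it ranged from 44.6% at the start to 73.3%, and the 3 strongest intronic summits, printed above, were all AT-rich at 73.3%, 71.3% and 72.3%. The woc summit with 42.6% and the mld summit at 24586631 with 41.6% were at the other end.

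In the order of all 3296 genes with a promoter summit by the signal of their strongest one, mld was at place 1318, between CG9514 and CG6006, woc was at 1350, between scny and Ppcs, and Oatp74D was at 2125, between velo and CG5969. This places the 3 genes in the middle of the order, and likeness of signal is all that these neighbours share here.

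Other genes of the pathway were counted in the same way. Of 17 that cover further enzymes, electron donors, sterol carriers, upstream signals and transport, 2 had a promoter summit, against 23.6% of all genes, and 7 had a summit in the window, against 50%. The other 10 had none. Atet, which encodes the transporter that loads ecdysone into secretory vesicles, had 3 promoter summits, the strongest 833 bp from its start with signal 546 and rank 554. Its ranks in the replicates were 620, 590 and 362, higher than at any summit of Oatp74D. Fdx1, a ferredoxin gene, had a promoter summit 2 bp from its start with signal 125.

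The window summits of the other genes lay nearer to neighbours, with vvl as the exception. The strongest, in the window of the adrenodoxin reductase gene dare, had signal 752 (rank 249) and lies 506 bp from the start of Fbl6. Those of ecd (264), Npc2a (203) and Eo (118) lie 107 bp from oxt, 94 bp from Got2 and 351 bp from CG9503. The summit of vvl, a POU factor gene, had signal 99.0 and lies 9615 bp from its start. Among those without any, the first in alphabetical order were Cyp18a1, Cyp6t3, Fdx2 and kni.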

How the data were processed

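Per the labels, the study measured binding of Eip75B-eGFP by ChIP-seq in 3 biological replicates of whole prepupae, which form 1 group. The authors deposited a list of regions with a signal value per region for each replicate, for the pooled replicates and for the optimal IDR set. Per the deposited file records, these lists derive from the replicates' alignments and a further control file, and the optimal list from the replicate and pooled lists. Not given in the sources used here: which aligner, peak caller and IDR cut-off were applied. The depth per library and the precision it gives are therefore unknown. Lists on dm3 were not used.

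Everything else was computed here with Python 3.11.15, numpy 2.4.6, pandas 2.3.3 and pysam 0.24.0. The summit is the deposited start plus the summit offset, written 1-based on dm6. Genes and starts came from Ensembl release 115 (FlyBase 6.54), protein-coding genes only, and sequences were read from the Release 6 assembly. On dm6 the 7803 optimal regions equal the top of the pooled list by signal. The counting was tested on made-up summits. The 10 genes, the 17 other genes and the motifs were chosen with earlier results of these data known, so no list was tested. Genes named are the members, the genes nearest to or holding a summit, other pathway genes with a summit, the first 4 in alphabetical order of those without, and the direct neighbours in the order of promoter signal. The neighbour CG13625, genes beside regions of single replicates, and the places named in the replicate lists were chosen after their values were seen. Alternatives changed the distances, the list used, the length of the top lists, the overlap and the replicates required.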

Additional observations from a re-analysis of the deposited data

How the results depend on the processing

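No paired analysis was possible because there is 1 group. Of 28 alternative values, 20 stayed within 1.5 times the reported count. The 28 are not separate checks. Summit counts with a replicate left out enter under both the window summits and the summits in all 3 top lists. Genes with a promoter summit were 3 with a distance of 500 bp, 4 with 2 kb (shd was added) and 5 in the whole pooled list (sad and shd were added), and 3 to 3 with each replicate left out. Genes with a window summit were 3 by the gene body alone, where sad and shd drop out, 4 with a flank of 1 kb and 7 with 10 kb, and 5 to 5 with each replicate left out. Shares of all genes at these alternative settings are not given here. A longer distance or list can only add genes, over all genes as well, so these changes are no result about the 10 genes. The 26 window summits became 24 regions with overlapping ones merged and 11 among the 3901 optimal summits of highest signal. They became 13 to 20 with each replicate left out, where the optimal list itself still rests on all 3. Requiring a place in both other top lists left 20 without replicate 1, 14 without replicate 2 and 13 without replicate 3. The counts over all optimal summits under this requirement are given above. The 12 summits in all 3 top lists became 8 with top lists of 5000 regions, 25 with 15000 or with the whole replicate lists, 11 with regions overlapping by 50% of the shorter, 9 with replicate summits within 100 bp, and 13 to 20 with each replicate left out. The count of summits in all 3 top lists thus depends on the length of the lists, and the windows of nvd and spok were empty under every list. Depth per library is unknown, so a place with no region is not shown to be unbound.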
